A study of Mus musculus with 6 samples.

Results

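The 10 genes described here serve fatty acid uptake and lipid droplets in mouse liver: Lpl, Cd36, Fabp1, Fabp4, Cidec, Cideb, Plin2, Plin4, Plin5 and Hilpda. They were named one by one, and all 10 were found among the 14492 genes of the deposited table. Hepatocytes take up fatty acids from the blood, bind them in the cytosol and store what they do not burn as triglyceride in lipid droplets. Each droplet is a core of neutral lipid under a layer of phospholipid, coated by perilipin proteins and enlarged by CIDE proteins, and it fills the hepatocytes of a fatty liver.

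Liver RNA came from 6 male mice (strain label C57BL/6, given as C57BL/6J in the protocol) that were 8 weeks old at the start and ate a high-fat diet for 2 weeks. Tail vein injection and diet began together. In 3 libraries the mouse had received vehicle, and in the other 3 a Chrna4-overexpressing adenovirus, a viral carrier of the gene for 1 subunit of a nicotinic receptor for acetylcholine. The sources used here give neither the promoter of the vector nor whether the vehicle held a virus without Chrna4. Nothing in the labels says more of how the mice were kept apart or handled, so p-values measure the spread between these 6 libraries.

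Levels are reads per 1000000 of a scaled library total (RPM), as the authors deposited them. Recovered whole reads numbered 14959338 to 22440334 per library. Mouse Chrna4 measured 1.70, 4.99 and 3.38 RPM with vehicle, against 3.70, 2.17 and 3.82 RPM in libraries labelled with its adenovirus, so the groups overlapped and the label was not borne out by this gene. Whether a transcript of the vector would be counted as mouse Chrna4 is not known. All directions therefore compare libraries by their labels, and "Chrna4 libraries" means those labelled with the Chrna4 adenovirus. Summed hepatocyte markers (6 of 6 measured) reached 76058 to 85362 RPM with vehicle, against 64583 to 72247 RPM with Chrna4. Of these 6, 0 were higher and 2 lower (limma, adjusted p under 0.05), with a median log2 difference of -0.41. Vehicle replicate 1 stood apart in macrophage genes: the sum of Adgre1, Csf1r, Cd68 and Lyz2 was 89.6 there, 227.3 and 218.1 in the other vehicle libraries, and 357.0 to 444.8 in the Chrna4 libraries.

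The genes moved in both directions, also among genes of like role. Of the 10 genes, 5 were higher in the Chrna4 libraries (Lpl, Cidec, Cd36, Fabp4 and Hilpda), 2 were lower (Fabp1 and Cideb) and 3 were not called (Plin2, Plin4 and Plin5), by limma with an adjusted p under 0.05. Of all 12099 genes tested, 14.2% were higher and 10.3% lower by the same rule. All 10 passed the filter on low values, a mean of at least 1 RPM. The 3 Chrna4 and the 3 vehicle values did not overlap for 7 of the 10 genes, the called ones, against 43.0% of all tested genes.

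**Figure D1:**
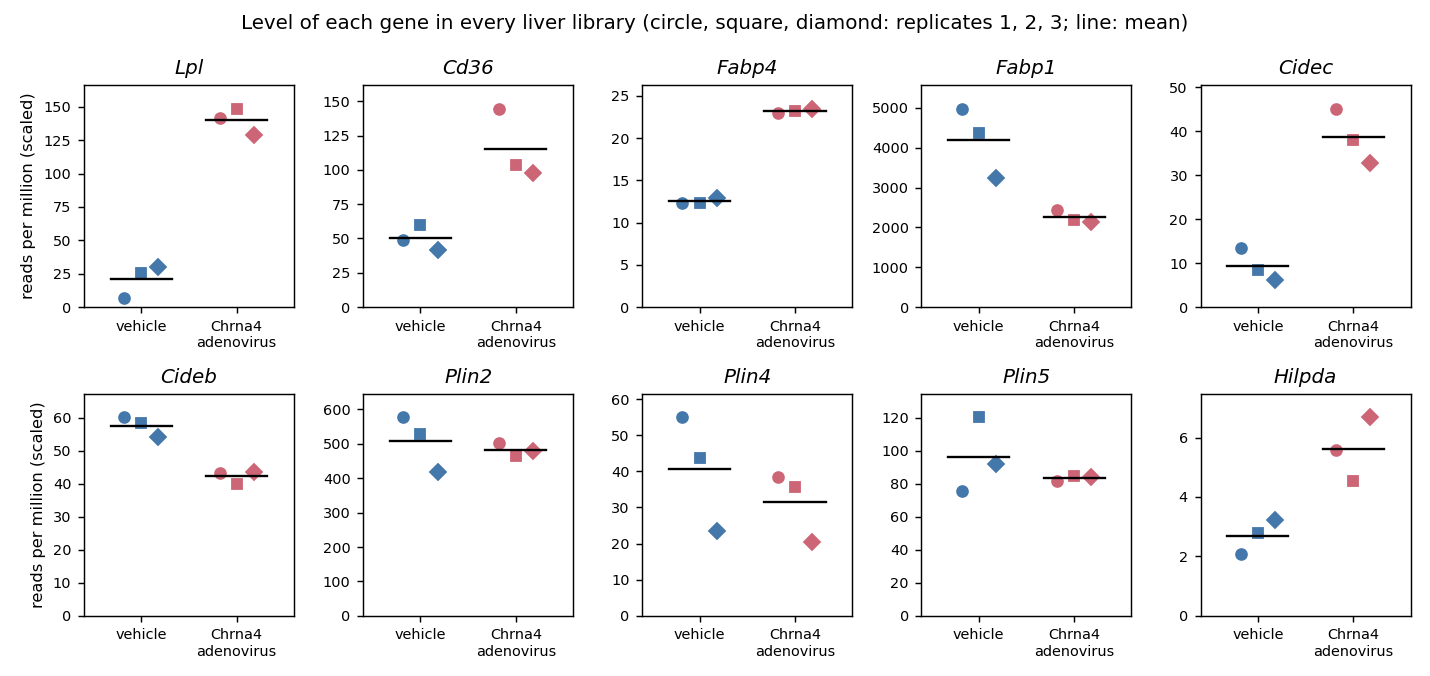
Level of each of the 10 genes in RPM (vertical axis, from 0) in the 3 vehicle and the 3 Chrna4 adenovirus libraries; each point is 1 library and the line is the group mean. Lpl, Cd36, Fabp4, Cidec and Hilpda sit higher in every Chrna4 library than in any vehicle library, Fabp1 and Cideb sit lower, and the 3 perilipin genes overlap between groups.

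Lpl (ENSMUSG00000015568; chromosome 8, 68880491 to 68907448 in GRCm38, plus strand) encodes lipoprotein lipase, the enzyme that frees fatty acids from triglyceride in circulating lipoproteins. It is made mainly outside hepatocytes in the adult, for instance in muscle, fat and macrophages. Vehicle libraries held 6.64, 25.2 and 30.3 RPM of Lpl, and Chrna4 libraries 142.0, 148.6 and 129.2. All 3 Chrna4 values exceeded every vehicle value, and the vehicle values themselves spread 4.57-fold, with replicate 1 low. Lpl went from 20.7 ± 12.5 to 139.9 ± 9.84 (mean ± SD, n = 3 per group). On the log2(value + 1) scale it rose by 2.93 with a standard error of 0.45 (95% interval 1.91 to 3.96; limma, adjusted p = 0.00323), the largest rise of the 10 genes. Without vehicle replicate 1 the difference was 2.30 (95% interval 2.05 to 2.54; limma, adjusted p = 1.55e-05).

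Macrophage and matrix genes moved with Lpl. In a list of 7 genes known from lipid-associated macrophages, all measured, 6 were higher and 0 lower (limma), and the list summed to 47.9 to 90.6 RPM with vehicle, against 193.0 to 245.0 RPM with Chrna4. Gpnmb, one of them, was at 0.540, 0.590 and 2.53 in vehicle and at 40.3, 47.2 and 40.5 in Chrna4 libraries. All 4 general macrophage markers were higher, whereas the 6 resident Kupffer cell markers, with sums of 212.7 to 560.0 and 578.1 to 594.7, split into 1 higher, 2 lower and 3 not called. The low Kupffer sum of 212.7 was that of vehicle replicate 1, against 560.0 and 529.5 in the other vehicle libraries, and without it 1 marker was higher and 5 were lower (limma; median log2 difference -0.65). Of 7 stellate cell and fibroblast markers 4 were higher, with sums of 99.6 to 136.3 and 440.3 to 498.5. Endothelial markers summed to 221.8 to 294.0 and 222.6 to 269.8, with 0 of 6 higher and 1 lower, Clec4g (log2 difference -0.41; limma, adjusted p = 0.0122). The other 5 were not called, with log2 differences from -0.31 for Tek to 0.46 for Pecam1 (limma, adjusted p = 0.0527 for Pecam1). The part of these cells in the rise of Lpl, or of Cd36 and Fabp4, which macrophages and endothelium also express, was not tested. In bulk liver RNA, more cells of a type and more RNA per cell cannot be told apart.

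Cd36 (ENSMUSG00000002944; chromosome 5, 17781690 to 17888801, minus strand) encodes a membrane receptor that takes up long-chain fatty acids. It stood at 49.2, 59.8 and 41.6 RPM in vehicle and at 144.7, 103.6 and 97.8 in Chrna4 libraries. The groups were well apart, and Chrna4 replicate 1 was the highest of all. Cd36 rose by 1.18 on the log2 scale (standard error 0.18, 95% interval 0.78 to 1.58; limma, adjusted p = 0.00298), a ratio of means of 2.30.

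The fatty acid binding protein genes went opposite ways. Fabp1 (ENSMUSG00000054422; chromosome 6, 71199827 to 71205023, plus strand) encodes the abundant fatty acid carrier of the hepatocyte cytosol, and its mean level ranked 36 among all 14492 genes. It was at 4980, 4361 and 3245 RPM in vehicle and at 2448, 2183 and 2134 in Chrna4 libraries. The Chrna4 values lay close together and below the lowest vehicle value. Fabp1 fell by 0.88 on the log2 scale (95% interval -1.28 to -0.47; limma, adjusted p = 0.00968). This call was lost without Chrna4 replicate 2 (log2 difference -0.85; limma, adjusted p = 0.0507). The size depended on the library scaling described below, with -0.54 on plain totals (limma, adjusted p = 0.0337).

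Fabp4 (ENSMUSG00000062515; chromosome 3, 10204088 to 10208576, minus strand) encodes the carrier found in adipocytes, macrophages and endothelium. Its level was 12.345, 12.336 and 12.958 RPM in vehicle and 23.004, 23.186 and 23.473 in Chrna4 libraries. Of the 10 genes it varied least within groups, with a highest-to-lowest ratio of 1.05 in vehicle and 1.02 in Chrna4 libraries. Fabp4 rose by 0.84 on the log2 scale (standard error 0.10, 95% interval 0.61 to 1.07; limma, adjusted p = 0.00137). Unlike Lpl, it was not low in vehicle replicate 1. The log2 ratio of Fabp4 to Fabp1 within a library, which does not depend on scaling apart from the pseudocount, was -8.54, -8.35 and -7.86 in vehicle and -6.67, -6.50 and -6.45 in Chrna4 libraries. It was thus higher in 3 of 3 Chrna4 libraries, by 1.71 (exact permutation test, 2-sided p = 0.1, the smallest that 3 against 3 allows; 0.15 adjusted over 3 ratios).

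The CIDE genes also went opposite ways. Both proteins sit at contacts between droplets. Cidec (ENSMUSG00000030278; chromosome 6, 113424634 to 113435760, minus strand), known as Fsp27 and as the CIDE protein of white fat and of steatotic liver, drives droplet fusion and growth. Its level was 13.5, 8.42 and 6.16 RPM in vehicle and 45.1, 38.1 and 32.8 in Chrna4 libraries. Every Chrna4 value was more than any vehicle value, and vehicle replicate 1 was the highest of its group. Cidec rose by 1.99 on the log2 scale (standard error 0.24, 95% interval 1.43 to 2.54; limma, adjusted p = 0.00138), a ratio of means of 4.13.

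Cideb (ENSMUSG00000022219; chromosome 14, 55754050 to 55758458, minus strand) is the CIDE gene normally expressed by hepatocytes, where its product acts in lipid loading of very low density lipoprotein. It was at 60.0, 58.4 and 54.1 RPM in vehicle and at 43.1, 39.8 and 43.7 in Chrna4 libraries. The groups did not overlap. Cideb fell by 0.44 on the log2 scale (95% interval -0.65 to -0.22; limma, adjusted p = 0.0117). It lost its call on plain library totals (-0.11; limma, adjusted p = 0.373) and without Chrna4 replicate 2 (-0.40; limma, adjusted p = 0.0649). The log2 ratio of Cidec to Cideb within a library was -2.07, -2.66 and -2.94 in vehicle, and 0.064, -0.059 and -0.40 in Chrna4 libraries. In vehicle livers Cideb had the higher read level by a wide margin, and in Chrna4 livers both were nearly level in reads. Read levels are not corrected for length. Per kb of exon, Cidec stayed below Cideb in Chrna4 libraries (17.7 to 24.3 against 32.8 to 36.0). The difference in this ratio was 2.43 (higher in 3 of 3 libraries; exact permutation test, 2-sided p = 0.1, the smallest possible; 0.15 adjusted over 3 ratios).

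Adipocyte markers varied widely among the vehicle libraries. Of 7 listed, 2 were measured, Cfd and Cidea. Adipoq and Plin1 were not among the deposited genes. Cidea was at 1.70, 0.268 and 0 RPM with vehicle and at 0.293, 0.159 and 0.159 with Chrna4. Cfd was at 16.4, 5.85 and 0.745 RPM with vehicle and at 2.29, 1.48 and 0.954 with Chrna4. It ranked the vehicle libraries as Cidec and Plin4 did, and as Fabp1, Plin2 and Cideb did too. Cfd was low in the Chrna4 libraries, where Cidec was high. The part of adipocytes in these values was not tested.

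The perilipins coat the droplet and control the access of lipases. Plin2 (ENSMUSG00000028494; chromosome 4, 86648386 to 86670060, minus strand), the general coat protein of hepatocyte droplets, was at 576.7, 528.6 and 417.9 RPM in vehicle and at 502.9, 464.7 and 480.1 in Chrna4 libraries. All 3 Chrna4 values fell inside the vehicle range. The log2 difference was -0.061 with a 95% interval of -0.36 to 0.23 (limma, adjusted p = 0.775), so a change of the size seen in Cidec or Lpl lies outside the interval.

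Plin5 (ENSMUSG00000011305; chromosome 17, 56111601 to 56117596, minus strand), a coat protein of oxidative tissues that tethers droplets to mitochondria, stood at 75.8, 120.2 and 92.3 in vehicle and at 81.5, 84.9 and 83.9 in Chrna4 libraries. Its Chrna4 values were nearly equal and lay within the vehicle range (log2 difference -0.18, 95% interval -0.53 to 0.17; limma, adjusted p = 0.453). Without vehicle replicate 1 the difference was -0.33 (95% interval -0.59 to -0.075; limma, adjusted p = 0.0582). Plin4 (ENSMUSG00000002831; chromosome 17, 56100591 to 56109803, minus strand), a coat protein of small new droplets best known from adipocytes, was at 54.9, 43.8 and 23.4 in vehicle and at 38.5, 35.7 and 20.6 in Chrna4 libraries. It spread 2.34-fold within vehicle and 1.87-fold within Chrna4 libraries, and its log2 difference of -0.32 had an interval from -1.06 to 0.41 (limma, adjusted p = 0.514). With intervals this wide, moderate changes of Plin4 were not detectable. The log2 ratio of Plin4 to Plin5 was -0.46, -1.44 and -1.93 in vehicle and -1.06, -1.23 and -1.98 in Chrna4 libraries, with overlapping groups (difference -0.15; exact permutation test, 2-sided p = 0.9).

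Hilpda (ENSMUSG00000043421; chromosome 6, 29272488 to 29275446, plus strand) encodes a small droplet protein that is induced by hypoxia and by fatty acids and that inhibits the lipase ATGL. It had the lowest level of the 10, from 27 to 126 reads per library, at 2.08, 2.79 and 3.23 RPM in vehicle and 5.57, 4.55 and 6.68 in Chrna4 libraries. The highest vehicle value stayed under the lowest Chrna4 value. Hilpda rose by 0.83 on the log2 scale (standard error 0.19, 95% interval 0.41 to 1.26; limma, adjusted p = 0.0138), and that scale understates changes at such levels. The call was lost without Chrna4 replicate 3 (0.72; limma, adjusted p = 0.0619). Hif1a, a subunit of the hypoxia factor, had a log2 difference of 0.025 (limma, adjusted p = 0.906).

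**Figure D2:**
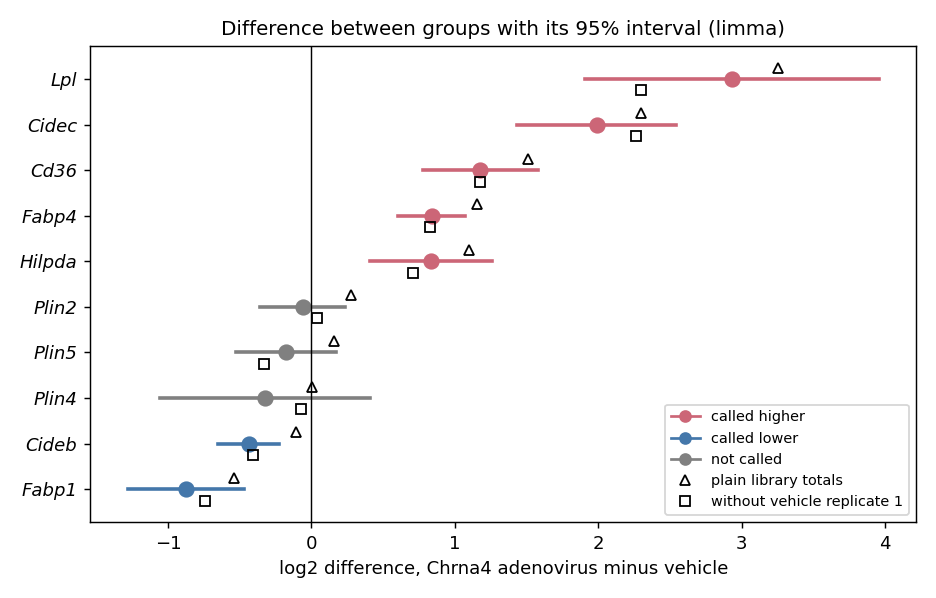
Log2 difference between Chrna4 adenovirus and vehicle libraries (horizontal axis) for each gene, with circles for the limma estimate on the deposited values and bars for its 95% interval; triangles use plain library totals and squares leave out vehicle replicate 1. Lpl, Cidec, Cd36, Fabp4 and Hilpda lie above 0 in all 3 settings and Fabp1 and Cideb below, with Cideb at -0.11 on plain totals. Plin2, Plin4 and Plin5 lie between -0.33 and 0.27, and each of them changes sign on plain totals.

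Leaving out the scaling of the libraries moves rises and falls up by about the same amount. That takes the rises farther from 0 and the falls nearer to it. Deposited values use totals multiplied by factors that ran from 0.853 to 0.922 with vehicle and from 1.11 to 1.14 with Chrna4. On plain totals the median log2 difference of all tested genes moved up by 0.31, and 5 of the 10 genes were higher and 1 lower (Fabp1), against 37.3% and 2.82% of all genes (limma). After subtraction of that shift Lpl stood at 2.94, Cidec at 1.99 and Cideb at -0.42. On the recovered reads, edgeR's quasi-likelihood test and DESeq2 each called the 5 higher and the 2 lower genes named above. Among all genes they called 14.1% and 14.5% higher and 9.40% and 11.8% lower. The authors' deposited table gives log2 fold changes of 2.75 for Lpl, 2.06 for Cidec, 1.20 for Cd36, 1.03 for Hilpda, 0.89 for Fabp4, -0.45 for Cideb and -0.90 for Fabp1. Its adjusted p-values for these 7 genes run from 5.79e-15 to 0.0110, and it gives 0.388, 0.465 and 0.822 for Plin4, Plin5 and Plin2.

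Levels of different genes can be compared per length. Divided by the summed exon length of their protein-coding transcripts, the vehicle means ran from 7587 RPM per kb for Fabp1 to 2.45 for Hilpda. Plin2 followed Fabp1 at 240.6. Then came Cideb (47.4) and Plin5 (46.0), whose ranges overlapped, Fabp4 (14.0) and Cd36 (14.0), which also overlapped, and Plin4 (7.05), Cidec (5.04) and Lpl (5.03), which overlapped as well. The vehicle range of Lpl (1.61 to 7.37) also overlapped with that of Hilpda (1.89 to 2.93). In Chrna4 libraries the level per length of Lpl, 31.4 to 36.1, overlapped with Cd36 (27.2 to 40.3) and Cideb (32.8 to 36.0), and that of Cidec, 17.7 to 24.3, came just below Fabp4 (25.7 to 26.2). Plin4 (3.56 to 6.66) and Hilpda (4.13 to 6.05) were lowest there and overlapped. By mean, Lpl thus moved from rank 9, nearly level with Cidec, to rank 5, and Fabp1 and Plin2 kept ranks 1 and 2 in both groups.

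**Figure D3:**
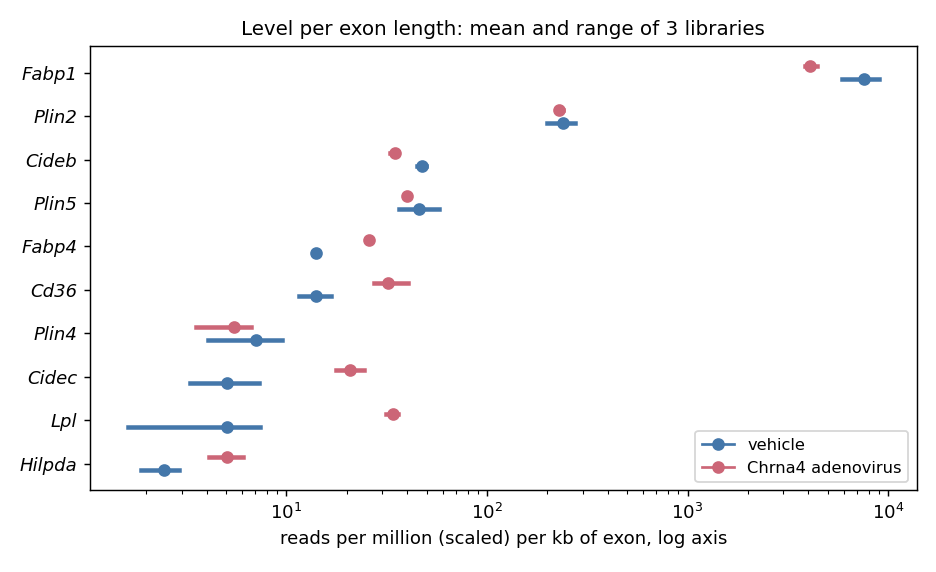
RPM per kb of exon (horizontal log axis) for the 10 genes, ordered by the vehicle mean; points are means and bars the lowest to highest of 3 libraries per group. Lpl and Cidec, level with Plin4 in vehicle libraries, lie above it in Chrna4 libraries, near Cd36, Fabp4 and Cideb for Lpl, while Fabp1 and Plin2 stay on top.

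Promoter sequences are shown for 2 genes that rose and the 2 that fell, because paralogs or partners moved apart and fatty acid receptors of the PPAR family act on many of these genes. RefSeq's table for GRCm38.p6 held 8 of the 10 genes. Each line gives the 250 bases before a start site, 5′ to 3′ on the strand of the gene. These start sites are RefSeq's and can differ from the gene spans given above, which come from another annotation. The windows of Fabp1 and Cideb run into those spans, and that of Cd36 lies inside its span. Capitals mark AGGTCA, the core site of nuclear receptors, and a relaxed form of the direct repeat that PPAR and RXR bind, spelled as 2 copies of AGGNCA with 1 base between them (N is any base). Both strands were searched, and the direct repeat can contain the core site.
Fabp1 (fell; chr6:71199629-71199878, plus strand): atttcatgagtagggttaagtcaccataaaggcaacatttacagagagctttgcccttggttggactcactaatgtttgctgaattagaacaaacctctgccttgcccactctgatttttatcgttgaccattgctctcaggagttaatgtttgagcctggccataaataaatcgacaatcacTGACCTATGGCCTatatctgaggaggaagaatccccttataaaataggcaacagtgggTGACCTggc
Cideb (fell; chr14:55758425-55758674, minus strand): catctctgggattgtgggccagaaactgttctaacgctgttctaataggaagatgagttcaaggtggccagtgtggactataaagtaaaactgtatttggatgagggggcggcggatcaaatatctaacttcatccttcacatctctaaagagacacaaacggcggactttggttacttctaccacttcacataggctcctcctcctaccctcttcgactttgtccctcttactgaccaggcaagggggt
Cidec (rose; chr6:113435761-113436010, minus strand): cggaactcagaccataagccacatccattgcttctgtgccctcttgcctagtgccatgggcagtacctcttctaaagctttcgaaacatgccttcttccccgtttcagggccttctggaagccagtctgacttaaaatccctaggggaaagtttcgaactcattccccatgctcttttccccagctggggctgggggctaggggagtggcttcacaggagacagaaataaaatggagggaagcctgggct
Cd36 (rose; chr5:17835897-17836146, minus strand): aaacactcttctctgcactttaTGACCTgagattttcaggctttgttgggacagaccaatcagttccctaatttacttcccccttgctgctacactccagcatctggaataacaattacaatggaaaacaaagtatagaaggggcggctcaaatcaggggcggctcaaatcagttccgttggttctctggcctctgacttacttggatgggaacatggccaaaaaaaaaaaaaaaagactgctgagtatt
Fabp1 was the 1 gene of the 8 with a match to the direct repeat, 67 to 55 bases before its start, and 0.338% of all 32851 windows of this length in the table held one. Its core sites lie in that repeat and at 9 to 4 bases before the start, the latter inside the gene span given above. Cd36 had 1 core site, 228 to 223 bases before the start used here, which lies inside its gene span. Plin2 and Plin5, not shown, also held one, against 14.0% of all windows. The windows of Cidec and Cideb held neither motif. The 8 genes had 11 windows, as Cidec, Hilpda and Plin5 had more than 1, and a further window of Cidec is not shown. The percentages are per window, not per gene. ACGTG, the core of the hypoxia response element, occurred before 1 start of Hilpda (43 to 39 bases before it, inside the gene span) and in 16.6% of all windows. A match is a description of letters, not a binding site.

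Fatty acid receptor genes were not called on the deposited values. Of 7 genes of PPARs, partner receptors and related factors, 0 were called in either direction (limma; median log2 difference 0.025). Without vehicle replicate 1, 2 were lower, DESeq2 called 1 lower, and on plain totals 1 was higher. Rxra, the partner receptor of the PPARs, had groups that did not overlap (log2 difference -0.27; limma, adjusted p = 0.0603). Pparg, the PPAR of fat and of steatotic liver, was at 13.7, 9.65 and 6.40 RPM in vehicle and at 14.4, 10.8 and 10.3 in Chrna4 libraries. The Chrna4 values were within or just above the vehicle range (log2 difference 0.28; limma, adjusted p = 0.457). Ppara, the PPAR of fatty acid oxidation in hepatocytes, had a log2 difference of -0.20 (limma, adjusted p = 0.378).

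Among other genes of the pathway, more were lower than higher on the deposited values, and on plain totals the counts, though not the lean against all genes, turned. Over 7 lists, 67 of 71 names were measured and 63 tested, of which 3 were higher (4.76%, against 14.2% of all tested genes) and 19 lower (30.2%, against 10.3%; limma). The median log2 difference was -0.23, against -0.0067 over all tested genes. On plain totals 12 of the 63 were higher and 9 lower, against 37.3% and 2.82% of all tested genes. Beside all genes, the share higher was thus still smaller and the share lower still larger. By comparison, the 6 hepatocyte markers had a median of -0.41 on the deposited values and -0.076 on plain totals. No list was tested as a set.

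Among 11 genes of fatty acid uptake and activation, 6 fell and 0 rose (limma; median -0.47). Slc27a5 and Slc27a2, which encode fatty acid transport proteins with acyl-CoA synthetase activity, fell by 0.89 and 0.77 on the log2 scale. Acsl1, the main long-chain acyl-CoA synthetase of liver, fell by 0.89 and the sterol and lipid carrier gene Scp2 by 0.50. Slc27a2 was at 2005, 1516 and 1836 RPM in vehicle and at 1015, 1051 and 1050 in Chrna4 libraries, with no overlap. For these 4 genes limma gave adjusted p-values from 0.00254 to 0.0325. Cd36, with the same broad role, rose in the same libraries. On plain totals 3 genes of this list were lower and 0 higher, and 3 were lower without vehicle replicate 2 or when any 1 Chrna4 replicate was left out.

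Of 11 lipoprotein lipase partners and other triglyceride lipases, 5 fell and 0 rose (limma; median -0.37). Angptl4, a secreted inhibitor of lipoprotein lipase, fell by 0.56 on the log2 scale. Apoc3, an apolipoprotein that inhibits the same lipase, fell by 0.64, and Lipc, the hepatic lipase, by 0.72. Lipc went from 160.1, 171.6 and 158.4 RPM in vehicle to 94.7, 103.4 and 99.3 in Chrna4 libraries. For these 3 genes limma gave adjusted p-values from 0.00137 to 0.0160. Angptl8, a further inhibitor gene of this list, was at 43.3, 27.6 and 43.4 RPM in vehicle and at 131.6, 34.2 and 144.8 in Chrna4 libraries. Chrna4 replicate 2 lay inside the vehicle range, and the log2 difference of 1.20 did not pass the test (limma, adjusted p = 0.110). On plain totals 2 members of the list were lower and 3 higher, edgeR called 4 lower and 1 higher, and 3 were lower when any 1 Chrna4 replicate was left out.

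Droplet lipolysis genes fell in 4 of 9 tested and rose in 0 (limma; median -0.50). On plain totals 3 were lower and 2 higher (median -0.17), and without vehicle replicate 1 the median was -0.23 with 4 lower. Those that fell encode esterases and a monoglyceride lipase: Ces1d (-1.43), Ces3a (-0.83), Aadac (-0.67) and Mgll (-0.64), with adjusted p-values from 0.000954 to 0.0137 (limma). Pnpla2, which encodes ATGL, the first lipase of droplet triglyceride, was at 140.7, 93.7 and 118.1 RPM in vehicle and at 113.1, 123.5 and 144.7 in Chrna4 libraries. These groups overlapped (log2 difference 0.12; limma, adjusted p = 0.611). In triglyceride assembly 2 of 7 tested genes fell, Dgat2 (-0.67) and Agpat2 (-0.55), both enzymes of acyl transfer (limma, adjusted p = 0.00788 and 0.0118), and 0 rose. On plain totals and without Chrna4 replicate 3, 1 was lower, and without vehicle replicate 1, 4 were.

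Droplet coat and shape genes other than the 10 went both ways, with 3 of 15 tested higher and 2 lower (limma; median -0.12). Hsd17b13, a droplet enzyme of hepatocytes, rose by 0.36 on the log2 scale and its relative Hsd17b11 fell by 0.41. Fitm1, which acts in droplet formation, fell by 1.22 and Mest rose by 0.72. Plin3, a further perilipin, was at 61.2, 42.3 and 43.3 RPM in vehicle and at 69.6, 73.4 and 61.6 in Chrna4 libraries, a rise of 0.49 whose groups barely separated. For these 5 genes limma gave adjusted p-values from 0.0241 to 0.0465, and the 3 rises were not called without vehicle replicate 3 or when any 1 Chrna4 replicate was left out. On plain totals 4 were higher and 0 lower, so the 2 falls were not called there. The list had 0 lower genes without vehicle replicate 2, Chrna4 replicate 2 or Chrna4 replicate 3, and 1 without Chrna4 replicate 1. Of the other fatty acid binding protein genes, 3 were tested and 0 called (limma): Fabp2, Fabp5 and Fabp7 had log2 differences of -0.26, 0.86 and 0.39, and 2 were higher on plain totals.

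**Figure D4:**
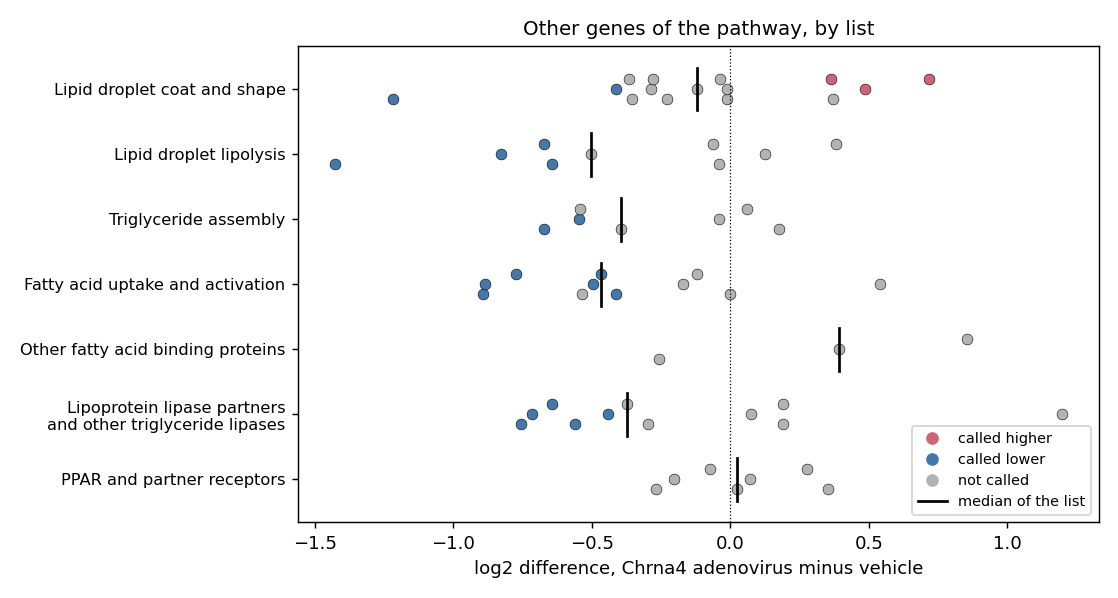
Log2 difference between Chrna4 adenovirus and vehicle libraries (horizontal axis) of every tested gene in 7 lists; each point is 1 gene, coloured by its limma call, and the black bar is the median of the list. The lists of lipolysis, uptake and activation, and lipoprotein lipase partners hold 4, 6 and 5 lower genes and 0 higher ones.

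The genes nearest in profile to the called ones were found by the root mean square difference of log2(value + 1), centred per gene, over the 6 libraries. Nearest to Lpl were H2-Eb1 (0.31), a class II antigen presentation gene, and Ubd (0.34). For Cidec the nearest were Osbpl3 (0.11), an oxysterol binding protein gene, and Phlda3 (0.20), a p53 target. Fabp1 lay nearest to mt-Cytb (0.053), a mitochondrially encoded respiratory gene, and to Mgst1 (0.068). Cideb lay nearest to Tspan12 (0.024) and Sdhaf4 (0.028). Fabp4 had Pacs1 (0.046) and Crlf2 (0.048), Cd36 had Zfp13 (0.099) and Creb5 (0.11), and Hilpda had Epha2 (0.067) and Pole (0.083). All of these share the 6 libraries and the difference between groups. The added 1 narrows changes of low genes, so a near profile need not be a like fold change. Mean levels went from 0.513 to 2.72 RPM for Zfp13 and from 0.243 to 1.90 for Creb5, against 50.2 to 115.4 for Cd36. Phlda3 went from 1.24 to 9.43, against 9.36 to 38.7 for Cidec. Among the 10, the pair with the smallest difference was Fabp4 and Hilpda (0.18).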

How the data were processed

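Poly(A)+ RNA of 6 livers was sequenced as paired reads of 150 bp. Per the submitters' processing notes, TopHat2 and HTSeq were used with mm10 and GRCm38, each with no version or role stated. The sources used here do not give the annotation, strand setting or treatment of shared reads. The authors deposited a signal per library, and, per the file headers, columns of their own comparison on a log2 scale (difference and abundance) and as a p-value, raw and adjusted. With a tolerance of 0.01, 100% of the signals were whole multiples of the value of 1 read, so that whole reads could be recovered; the scaling they imply equals the TMM factors recomputed by edgeR.

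Library columns were matched to samples by liver number. Both other deposited sheets hold selections of genes and were not used. Groups were compared with limma 3.58.1 in R 4.3.3 (trended eBayes) on log2(value + 1) of the 12099 genes averaging at least 1 RPM, Benjamini-Hochberg adjusted over all of them; 2393 genes were not tested. This understates changes of low genes. edgeR 4.0.16 (2841 genes called against 2962 by limma) and DESeq2 1.42.0 on the recovered reads, a pseudocount of 0.1, no filter, plain totals and leaving out each library were alternatives. The limma and edgeR steps were also run on simulated data, whose outcome is not given here. Changes there were larger than the limma differences of Cideb, Fabp1, Fabp4 and Hilpda, and only in genes of higher level than Fabp4 and Hilpda. Coordinates and exon lengths are from GENCODE M21 (GRCm38), whose use by the authors is not given. The members and lists were chosen with earlier results of these data known. Genes named are the 10, up to 4 called genes with the lowest p per list (1 of them is not reported here) and a few listed by symbol, and the 2 nearest profiles per called gene. Clec4g, Tek, Cidea, Rxra and Angptl8 were named after their values were seen. Cfd, Hif1a, Fabp2, Fabp5 and Fabp7 were not among the symbols listed for naming either.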

Additional observations from a re-analysis of the deposited data

How the results depend on the processing

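Among the log2 differences of the 10 genes recomputed under other settings, 102 kept their direction and side of the threshold. The others were the 4 lost calls given above and 4 changes of sign in genes that were not called: on plain totals Plin2 (0.27), Plin5 (0.15) and Plin4 (0.0018), and Plin2 without vehicle replicate 1 (0.037; -0.19 to 0.037 over the libraries left out). On plain totals 1 of the 10 genes was lower, 4852 genes changed, and 12 pathway genes were higher and 9 lower; this follows from the upward shift of the median by 0.31. Leaving out each library in turn gave 4 to 5 higher and 0 to 2 lower genes of the 10, 1442 to 3331 changed genes, and 0 to 3 higher and 11 to 24 lower pathway genes. The 0 lower genes arose without Chrna4 replicate 2, where 1442 genes changed; without Chrna4 replicates 1 and 3 there were 1866 and 1696; their cause was not tested. The log2 ratio of Plin4 to Plin5 ran from -0.48 to 0.26 (0.26 without vehicle replicate 1 and 0.13 without Chrna4 replicate 3, both of changed sign), that of Cidec to Cideb from 2.23 to 2.67, and that of Fabp4 to Fabp1 from 1.57 to 1.91. No paired analysis was possible because no label pairs a vehicle liver with a Chrna4 liver. With 27 to 126 reads per library, Hilpda is the gene whose level depth limits most.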
